A study of Mus musculus with 12 samples.

Results

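The genes described here are 9 mouse genes of mitochondrial fatty acid oxidation and ketone body production: Cpt1a, Cpt2, Acadvl, Acadl, Acadm, Hadha, Hadhb, Bdh1 and Pdk4. They were picked by gene symbol and found through the Ensembl identifiers of the count table. All 9 were among its 55359 genes, and 9 of 9 passed the filter on low counts, which left 15274 genes to test. The livers of 12 C57BL/6NTac males, 4 in each of 3 groups, were profiled by RNA-seq. The NM-FGF19 group was kept on high-fat diet and injected with lipid nanoparticles (LNPs) carrying mRNA for NM-FGF19, a version of the gut hormone FGF19 without its growth-promoting activity. The HFD control group had the same diet and LNPs with a control mRNA. The lean group had normal chow and, per the labels, control mRNA too, so every mouse was given LNPs. Injections were weekly over 6 weeks, with the livers collected 24 hours after the final one. The labels put the time on diet at 28 weeks, while the series description gives 21 weeks before treatment and calls the mice 24 weeks old. The count columns of the HFD controls carry the name mOX40L, the mouse gene Tnfsf4, although the labels describe only a control mRNA, and whether both control groups had the same mRNA is not given in the sources used here. High-fat diet mice killed before treatment are mentioned in the description and were not analysed here.

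Fatty acids enter mitochondria as acylcarnitines, made by CPT1 in the outer membrane and turned back into acyl-CoA by CPT2 in the inner one. Acyl-CoA dehydrogenases and the trifunctional protein then shorten the chain in repeated rounds, and the liver turns the resulting acetyl-CoA into ketone bodies that other organs burn during fasting. Many of these genes are targets of the nuclear receptor PPAR-alpha, which fatty acids activate, and PDK4 spares pyruvate by switching off the pyruvate dehydrogenase complex.

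The promoters of the 4 genes that passed the test in at least 1 comparison are shown, since they are the stretches from which the counted RNAs start. They are RefSeq sequences of build GRCm38.p6, an older build than the mm39 of the counts, and run from 250 bases before to 50 bases after the annotated start, read along the gene. Capitals mark matches on either strand to AGGTCA, the site bound by a single PPAR-alpha or related receptor molecule, or to the GC box GGGCGG. The windows are chr3:153944594-153944893 (minus strand) for Acadm, chr4:107923540-107923839 (minus) for Cpt2, chr5:30155003-30155302 (plus) for Hadhb, and chr16:31422047-31422346 and chr16:31428503-31428802 (plus) for the 2 annotated starts of Bdh1.
Acadm promoter: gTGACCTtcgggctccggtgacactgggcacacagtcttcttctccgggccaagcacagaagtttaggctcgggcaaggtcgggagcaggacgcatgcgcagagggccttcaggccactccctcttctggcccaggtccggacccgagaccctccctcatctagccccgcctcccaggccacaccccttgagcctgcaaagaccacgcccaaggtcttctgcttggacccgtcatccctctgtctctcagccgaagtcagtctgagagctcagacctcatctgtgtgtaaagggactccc
Cpt2 promoter: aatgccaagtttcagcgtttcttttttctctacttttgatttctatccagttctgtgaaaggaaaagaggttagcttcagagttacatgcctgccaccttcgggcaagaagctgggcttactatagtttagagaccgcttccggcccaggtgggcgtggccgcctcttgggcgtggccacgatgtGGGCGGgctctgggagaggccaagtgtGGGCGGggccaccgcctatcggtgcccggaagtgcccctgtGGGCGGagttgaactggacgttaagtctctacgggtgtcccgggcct
Hadhb promoter: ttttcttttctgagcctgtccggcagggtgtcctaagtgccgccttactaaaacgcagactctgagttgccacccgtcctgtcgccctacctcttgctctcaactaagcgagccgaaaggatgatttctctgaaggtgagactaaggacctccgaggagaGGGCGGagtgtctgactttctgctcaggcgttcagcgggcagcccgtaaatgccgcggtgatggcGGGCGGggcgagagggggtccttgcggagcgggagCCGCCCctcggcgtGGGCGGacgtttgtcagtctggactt
Bdh1 promoter, upstream start: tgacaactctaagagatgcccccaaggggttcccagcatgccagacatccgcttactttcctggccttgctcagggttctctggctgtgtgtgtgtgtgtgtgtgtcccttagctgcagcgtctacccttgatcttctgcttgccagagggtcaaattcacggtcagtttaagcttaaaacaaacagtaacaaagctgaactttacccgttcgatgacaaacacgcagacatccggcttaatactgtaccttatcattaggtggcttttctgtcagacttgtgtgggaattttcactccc
Bdh1 promoter, downstream start: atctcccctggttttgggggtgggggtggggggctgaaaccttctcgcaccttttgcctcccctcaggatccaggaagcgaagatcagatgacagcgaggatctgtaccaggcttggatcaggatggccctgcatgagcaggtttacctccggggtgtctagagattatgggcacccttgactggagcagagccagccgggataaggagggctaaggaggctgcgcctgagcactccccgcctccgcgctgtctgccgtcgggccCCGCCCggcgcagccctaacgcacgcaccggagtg
AGGTCA was found in 3 of the 10 windows of the 9 genes (Acadm, Acadvl and Cpt1a), against 16.3% of 32851 mouse promoters of the same length. The Acadm match lies at the far end of its window, from -249 to -244 relative to the start. A relaxed direct repeat of that unit with 1 base between the copies, AGGNCANAGGNCA, was found in 0 of the 10 windows and in 0.381% of all promoters. GGGCGG was found in 6 of the 10 windows, at 6 of the 9 genes, against 35.7% of all promoters. There were 3 matches in the Cpt2 window and 4 in the Hadhb window. The 10 windows were 48.3 to 70.3% G and C, against a median of 52.7% over all promoters. The box CCAAT was found for Cpt1a and Pdk4, against 37.4% of all promoters. Hadha and Hadhb are transcribed away from each other from starts 273 bases apart, so their windows share 228 bases, and the Hadhb sequence above is in large part the Hadha promoter read on the other strand. The GGGCGG match of Hadha, from -188 to -183, is the same stretch as the Hadhb match from -90 to -85. These matches describe letters in a window, not sites that a factor was shown to use.

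Levels are given in CPM, counts brought to a common library total, with each total first scaled by TMM, a factor that corrects for library composition. Totals ran from 23743415 to 33257260 counts, and the floor of 3 counts lay at 0.0792 to 0.153 CPM, under every value of the members. TMM factors were 0.970 to 1.05 in NM-FGF19, 1.06 to 1.17 in HFD control and 0.779 to 0.963 in lean libraries. HFD control 3 and lean 3 stood farthest out on the first 2 principal components, so results that rest on them are also given without them. All 12 hepatocyte markers were detected in every group. Their summed level was 116108 to 161684 CPM in NM-FGF19, 69530 to 93931 CPM in HFD control and 110717 to 172234 CPM in lean livers, and 2 of the 12 were lower in HFD control than in lean livers. Stellate cell markers summed to 317 to 846, 490.0 to 1062 and 196 to 282 CPM in NM-FGF19, HFD control and lean livers, and 4 of 7 were higher in HFD control and 1 in NM-FGF19 than in lean livers. Macrophage markers summed to 139 to 274 CPM in NM-FGF19, 181 to 474 CPM in HFD control and 322 to 432 CPM in lean livers. Of these 9, 4 were higher and 3 lower in HFD control than in lean livers, and 2 were higher in NM-FGF19 than in lean livers. The 3 lower ones were Timd4, Vsig4 and Clec4f of resident Kupffer cells, named after their values were seen. The 4 higher ones were among Adgre1, Cd68, Lyz2, Itgax, Trem2 and Gpnmb. Adipocyte markers summed to 53.2 to 90.5, 61.3 to 153 and 25.5 to 70.5 CPM in the same order of groups, with 2, 2 and 3 of 8 at 0 in every library of the group. Among the 4 tested, 2 were higher in HFD control than in lean livers and 1 was lower in NM-FGF19 than in HFD control livers. Endothelial markers summed to 310 to 365 CPM in NM-FGF19, 295 to 365 CPM in HFD control and 282 to 322 CPM in lean livers, and 1 of 6 was higher in HFD control than in lean livers. Cholangiocyte markers summed to 33.3 to 120, 32.8 to 126 and 53.8 to 279 CPM in those groups, and 1 of 5 tested was lower in HFD control than in lean livers. Lymphocyte markers summed to at most 6.59, 7.98 and 5.92 CPM, and 0 of 7 were called. Skeletal muscle markers, from a tissue that also uses these genes, summed to at most 1.00, 0.747 and 2.37 CPM in the same groups. For scale, 5.04% of all genes were called higher and 3.29% lower in HFD control than in lean livers. In NM-FGF19 livers 1.01% were called higher than in lean livers, and 0.151% lower than in HFD control livers. The part of these cell types in the results was not tested. In whole liver, fewer cells of a type and less RNA per cell cannot be told apart.

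Per kilobase of transcript, which allows genes to be compared, the members spanned a wide range. Acadm was highest, at 132 ± 43.2 CPM per kilobase (SD over the 12 libraries), followed by Cpt1a at 112 ± 29.2, Acadl at 92.6 ± 24.7 and Hadha at 84.2 ± 13.3. Bdh1 had 75.1 ± 35.01, Acadvl 63.3 ± 10.3, Cpt2 49.6 ± 11.2 and Hadhb 33.1 ± 9.35 CPM per kilobase, and Pdk4 stood apart at 1.86 ± 1.41. Each gene from Acadm to Bdh1 differed from the next by less than its own SD. From Acadvl downwards, each gene was above the next in all 12 libraries. The order moved with the group: Bdh1 had 110.3 CPM per kilobase in NM-FGF19 livers, 73.6 in HFD control and 41.5 in lean livers, while Acadm had 116 in NM-FGF19, 177 in HFD control and 103 in lean livers. Lengths come from 1 annotated transcript per gene.

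**Figure D1:**
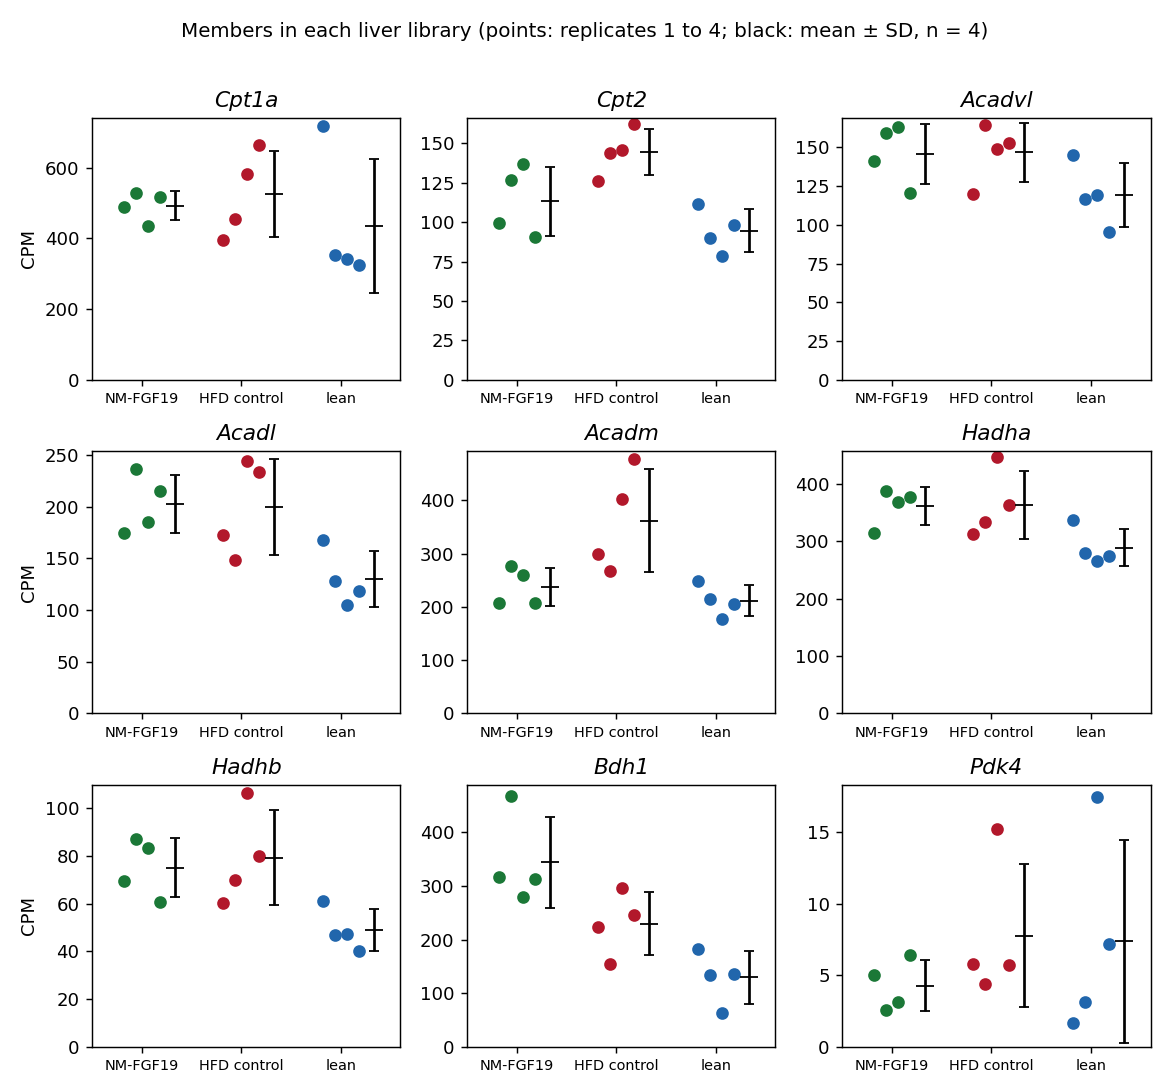
CPM of the 9 genes in each liver library, with the 4 mice of each group as points and the group mean ± SD in black; every axis starts at 0. Acadm and Cpt2 were higher in all 4 HFD control libraries than in all 4 lean ones, and Bdh1 was higher in all 4 NM-FGF19 libraries than in all 4 lean ones. Single libraries stood out for Cpt1a (lean 1) and Pdk4 (HFD control 3), and lean 3 had the highest Pdk4 value.

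The diet comparison set high-fat diet against normal chow, each with a control mRNA per the labels. In HFD control against lean livers, Acadm, Cpt2 and Hadhb were higher, each by 1.53- to 1.71-fold, and 0 of the 9 genes were lower. The remaining 6 did not pass the test, although all 9 log2 fold changes were positive, from 0.08 for Pdk4 to 0.83 for Bdh1. A gene is called when its edgeR quasi-likelihood p, after Benjamini-Hochberg adjustment across every gene tested, is under 0.05. Over all genes, 5.04% were called higher, 3.29% lower and 8.33% in either direction. The members' median log2 fold change was 0.61, against -0.02 over all genes. Scaling by library totals alone moved the median of all genes to 0.29 and that of the members to 0.91, and then 7 members were called, so the number of calls depended on the scaling. Unadjusted p-values were under 0.05 for 6 of the 9, all higher. In the same libraries the summed hepatocyte markers lay lower in HFD control than in lean livers, without overlap, the stellate cell sum lay higher without overlap, and markers of macrophages and adipocytes were among the called genes. Much of the hepatocyte sum was Alb, on average 33241 of 81386 CPM in HFD control and 54535 of 133922 CPM in lean livers. Of the 12 hepatocyte markers, 10 were not called.

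The treatment comparison asked what NM-FGF19 did on top of the diet. In NM-FGF19 against HFD control livers, 0 of the 9 genes were called by edgeR, where 0.432% of all genes were called in either direction, 0.282% higher and 0.151% lower. DESeq2 and limma voom also called 0. At an unadjusted p under 0.05 there were 2, Acadm and Cpt2, both with negative values. The members' median was -0.08, against -0.000478 over all genes. With simulated counts, the fit called 10% of 1.5-fold changes in this comparison, so 0 calls do not exclude changes of that size. The summed hepatocyte markers lay higher in NM-FGF19 than in HFD control livers, without overlap, and 0 of the 12 were called. Much of that sum was Alb, on average 75215 of 140807 CPM in NM-FGF19 and 33241 of 81386 CPM in HFD control livers. NM-FGF19 against lean livers combines diet and treatment, and 1 of the 9 was called, Bdh1, 2.66-fold higher, where 1.01% of all genes were called higher, 0.484% lower and 1.49% either way. The 3 comparisons share libraries (HFD control in 2 of them, lean in 2), so their values are not independent and are given side by side for each gene.

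**Figure D2:**
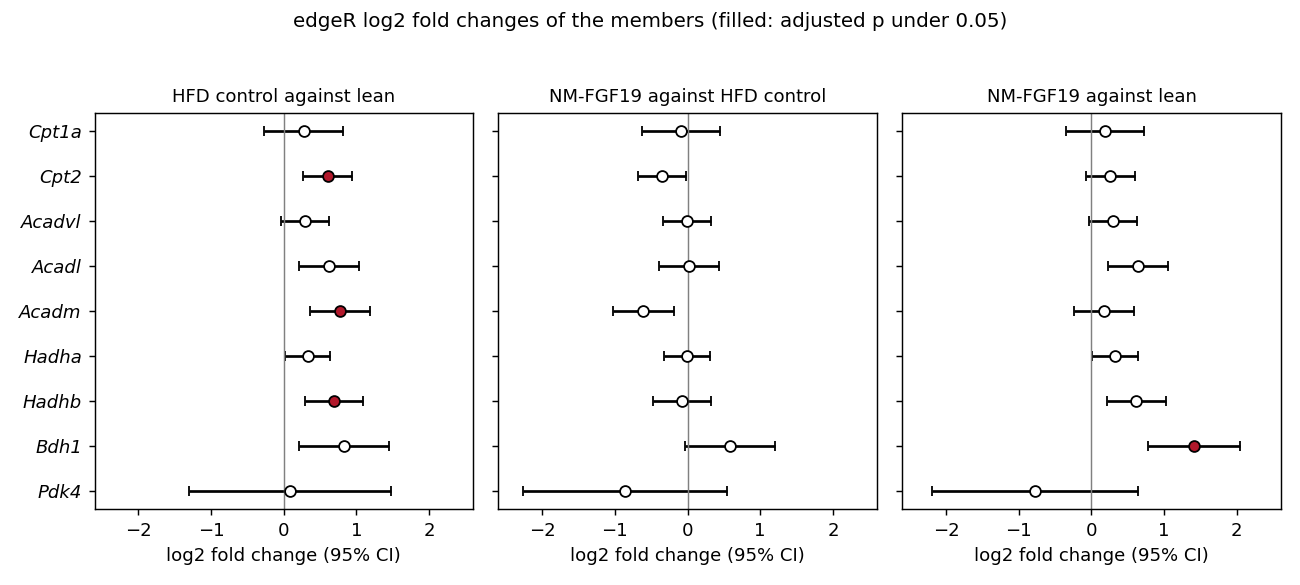
edgeR log2 fold changes of the 9 genes with 95% confidence intervals in each comparison; filled points have an adjusted p under 0.05. Acadm (0.77), Cpt2 (0.61) and Hadhb (0.69) are filled for HFD control against lean, Bdh1 (1.41) for NM-FGF19 against lean, and no point is filled for NM-FGF19 against HFD control.

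Of the 2 genes of entry, Cpt1a encodes the liver form of the outer-membrane transferase and is the step that malonyl-CoA inhibits. Its level was 489, 528, 435 and 518 CPM in NM-FGF19 mice 1 to 4, 397, 455, 582 and 665 CPM in HFD control mice, and 717, 352, 340.2 and 325 CPM in lean mice. Lean 1 lay above every other library, while the other lean mice lay below every mouse on high-fat diet, and because of lean 1 the groups overlapped. The log2 fold change was 0.28 ± 0.25 (SE) for HFD control against lean (adjusted p = 0.548). It was -0.09 ± 0.25 for NM-FGF19 against HFD control (adjusted p = 0.966), with a 95% interval from -0.63 to 0.45, and 0.18 ± 0.25 for NM-FGF19 against lean (adjusted p = 0.773). Without lean 1 the diet value was 0.64, with an adjusted p of 0.0527, and the value for NM-FGF19 against lean was 0.54.

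Cpt2, which encodes the inner-membrane transferase, was higher on the diet. Its level was 99.4, 127, 137 and 90.6 CPM in NM-FGF19 mice, 126, 144, 146 and 162 CPM in HFD control mice, and 112, 89.9, 78.8 and 98.3 CPM in lean mice. All HFD control values lay above all lean values, and NM-FGF19 mice overlapped both groups. HFD control against lean livers gave a log2 fold change of 0.61 ± 0.16 (adjusted p = 0.0305). For NM-FGF19 against HFD control it was -0.35 ± 0.16 (adjusted p = 0.537), with an interval from -0.68 to -0.01 before adjustment, and for NM-FGF19 against lean 0.26 ± 0.16 (adjusted p = 0.432). The diet call was lost when any 1 of HFD control 3, HFD control 4, lean 2, lean 3 or lean 4 was left out (adjusted p = 0.0558 to 0.0794, log2 0.55 to 0.65), and without HFD control 3 and lean 3 together (0.55, adjusted p = 0.102).

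The acyl-CoA dehydrogenases take the first step of each round, and their names give the chain length they prefer. Acadm, for medium chains, showed the clearest diet difference among them. It had 208, 277, 259 and 206 CPM in NM-FGF19 mice, 299, 266, 403 and 477 CPM in HFD control mice, and 248, 215, 177 and 204 CPM in lean mice. All HFD control values exceeded all lean values, and in NM-FGF19 mice only animal 2 reached the lowest HFD control value. Of all 15274 genes, 15.3% had HFD control and lean ranges that did not overlap, and this held for 2 of the 9 members, Acadm and Cpt2. For Acadm, HFD control against lean livers gave 0.77 ± 0.19 on the log2 scale (adjusted p = 0.0272), which is 1.71-fold. For NM-FGF19 against HFD control it was -0.61 ± 0.19, with an interval from -1.02 to -0.19, and this did not pass after adjustment over all genes (adjusted p = 0.290). For NM-FGF19 against lean it was 0.17 ± 0.19 (adjusted p = 0.717). As for Cpt2, the diet call did not survive leaving out any 1 of HFD control 3, HFD control 4, lean 2, lean 3 or lean 4 (adjusted p = 0.0553 to 0.0732, log2 0.61 to 0.80), nor HFD control 3 and lean 3 together (0.67, adjusted p = 0.109).

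Acadl, for long chains, stood at 174, 236, 185 and 215 CPM in NM-FGF19 mice, 172, 148, 244 and 234 CPM in HFD control mice, and 168, 128, 105 and 119 CPM in lean mice. NM-FGF19 mice lay above all lean mice, and HFD control 2 lay below lean 1. The log2 fold change was 0.62 ± 0.19 for HFD control against lean (adjusted p = 0.0610) and 0.64 ± 0.19 for NM-FGF19 against lean (adjusted p = 0.108). For NM-FGF19 against HFD control it was 0.02 ± 0.19, with an interval from -0.39 to 0.43 (adjusted p = 0.989). Its diet value lay near the threshold: it passed without HFD control 2 (0.74, adjusted p = 0.0292) or without lean 1 (0.78, adjusted p = 0.0306), and with DESeq2 (adjusted p = 0.0187). Ranges of NM-FGF19 and lean livers that did not overlap were found for 2 of the 9 members, Acadl and Bdh1, and for 10.3% of all genes.

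Acadvl, for very long chains, did not pass in any comparison. It had 141, 159, 163 and 120.5 CPM in NM-FGF19 mice, 120.2, 165, 149 and 153 CPM in HFD control mice, and 145, 116, 119.5 and 95.2 CPM in lean mice. All 3 groups overlapped. On the log2 scale the fold change was 0.30 ± 0.15 for HFD control against lean (adjusted p = 0.251), -0.01 ± 0.15 for NM-FGF19 against HFD control, with an interval from -0.34 to 0.32, and 0.29 ± 0.15 for NM-FGF19 against lean (adjusted p = 0.364). Acadvl shares 1151 bases of exon with Dvl2 on the opposite strand, whose own mean was 5.17 CPM, and the strand setting of the counting is not given in the sources used here.

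Hadha and Hadhb encode the alpha and beta subunits of the trifunctional protein, which carries out the later steps of each round on long chains. Hadha had 314, 387, 368 and 377 CPM in NM-FGF19 mice, 313, 333, 448 and 363 CPM in HFD control mice, and 336, 279.6, 265 and 275 CPM in lean mice. Hadhb had 69.3, 87.1, 83.3 and 60.6 CPM in NM-FGF19 mice, 60.2, 69.9, 106 and 80.1 CPM in HFD control mice, and 61.1, 47.0, 47.2 and 40.3 CPM in lean mice. For both genes lean 1 was the highest lean mouse and overlapped the mice on high-fat diet, while the other 3 lean mice lay below all of them. Hadhb was higher in HFD control than in lean livers, with a log2 fold change of 0.69 ± 0.19 (adjusted p = 0.0374). Hadha had 0.33 ± 0.14 in the same comparison (adjusted p = 0.175). NM-FGF19 against HFD control livers gave -0.01 ± 0.14 for Hadha and -0.08 ± 0.19 for Hadhb, with intervals from -0.32 to 0.30 and from -0.48 to 0.32. NM-FGF19 against lean livers gave 0.32 ± 0.14 for Hadha (adjusted p = 0.281) and 0.62 ± 0.19 for Hadhb (adjusted p = 0.111). The Hadhb diet call was lost without any 1 of HFD control 3, HFD control 4, lean 2, lean 3 or lean 4 (adjusted p = 0.0656 to 0.103, log2 0.52 to 0.70), without HFD control 3 and lean 3 together (0.53, adjusted p = 0.138), and with only the 2 groups in the fit (0.72, adjusted p = 0.0575).

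Hadhb counts are uncertain, because the gene Gm13910 carries 1428 of the 2048 bases of its transcript at 99.8% identity, and the handling of reads that match both is not given. Gm13910 was counted at 2.79 ± 0.406 CPM in NM-FGF19, 3.19 ± 0.979 CPM in HFD control and 2.15 ± 0.259 CPM in lean livers (SD, n = 4 each). A further copy, Gm9108, with 97.6% identity over 1426 bases, averaged 0.0483 CPM. Adding the counts of both copies to Hadhb, an alternative chosen after seeing the data, left the log2 fold change for HFD control against lean at 0.69 (adjusted p = 0.0370).

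The ratio of Hadha to Hadhb counts within a library does not depend on library scaling. On the log2 scale it was 2.18, 2.15, 2.14 and 2.64 in NM-FGF19 mice, 2.38, 2.25, 2.07 and 2.18 in HFD control mice, and 2.46, 2.57, 2.49 and 2.77 in lean mice. All HFD control values lay below all lean values, and 1 NM-FGF19 mouse lay among the lean ones. The mean was 2.22 ± 0.13 in HFD control and 2.57 ± 0.14 in lean livers (SD, n = 4 each), a difference of -0.35. The exact permutation test, 2-sided, gave p = 0.0286, the smallest that 4 against 4 allows, and 0.257 after adjustment over the 9 ratio tests, so it did not pass. For NM-FGF19 the mean was 2.28 ± 0.24, which differed by 0.06 from HFD control (exact permutation p = 0.743) and by -0.30 from lean livers (exact permutation p = 0.114, adjusted p = 0.429). The log2 ratio of Cpt1a to Cpt2 averaged 2.14 ± 0.36 in NM-FGF19, 1.84 ± 0.21 in HFD control and 2.12 ± 0.41 in lean livers. Its differences were -0.28 for HFD control against lean, 0.30 for NM-FGF19 against HFD control and 0.01 for NM-FGF19 against lean, with adjusted exact permutation p-values of 0.514, 0.429 and 0.971.

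**Figure D3:**
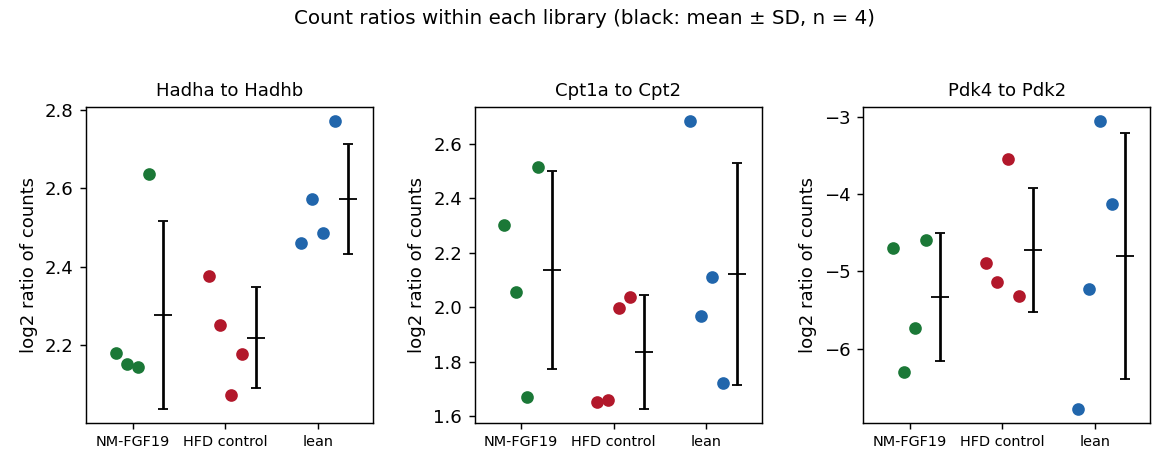
Log2 ratios of the counts of 2 genes within each library (Hadha to Hadhb, Cpt1a to Cpt2, Pdk4 to Pdk2), with the 4 mice of each group as points and the mean ± SD in black; axes do not start at 0. The Hadha to Hadhb ratio lay lower in the 4 HFD control than in the 4 lean livers, at 2.22 against 2.57, and NM-FGF19 4 stood at 2.64 apart from its group.

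Bdh1, for the enzyme that interconverts acetoacetate and beta-hydroxybutyrate, the last step of ketone body production, was the member that differed most between NM-FGF19 and lean livers. It had 317, 469, 280.0 and 312 CPM in NM-FGF19 mice, 223, 155, 296 and 245 CPM in HFD control mice, and 183, 135, 64.1 and 136 CPM in lean mice. NM-FGF19 mice all lay above the lean mice, and 3 of the 4 lay above every HFD control mouse, animal 3 being below HFD control 3. HFD control 2 lay within the lean range. The log2 fold change was 1.41 ± 0.29 for NM-FGF19 against lean (adjusted p = 0.0360). For HFD control against lean it was 0.83 ± 0.29 (adjusted p = 0.0932), and for NM-FGF19 against HFD control 0.58 ± 0.29, with an interval from -0.03 to 1.20 (adjusted p = 0.591). Bdh1 was thus the only member with a log2 fold change above 0.1 for NM-FGF19 against HFD control, without passing the test there. The call against lean was lost without any 1 of NM-FGF19 1, NM-FGF19 2, NM-FGF19 4, lean 2 or lean 4 (adjusted p = 0.0702 to 0.0764, log2 1.24 to 1.46) and with only the 2 groups in the fit (adjusted p = 0.0630). Without lean 3, the lowest library, and HFD control 3 together it was 1.20 (adjusted p = 0.0230). Bdh1 shares 533 bases of exon with Gm15743 on the opposite strand, counted at 0.398 CPM.

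Pdk4, for the kinase that inactivates pyruvate dehydrogenase and rises with fasting, was the least expressed member and the most variable. It had 5.04, 2.54, 3.14 and 6.39 CPM in NM-FGF19 mice, 5.75, 4.40, 15.2 and 5.71 CPM in HFD control mice, and 1.68, 3.16, 17.4 and 7.21 CPM in lean mice. HFD control 3 stood far above the other HFD control mice. Lean 3 was the highest lean mouse, within lean values spread from 1.68 to 17.4 CPM, and the groups overlapped throughout. HFD control 3 and lean 3 are the libraries that lay farthest out over all genes. The log2 fold change was 0.08 ± 0.64 for HFD control against lean, -0.86 ± 0.64 for NM-FGF19 against HFD control and -0.77 ± 0.65 for NM-FGF19 against lean (adjusted p = 0.952, 0.780 and 0.597). Without HFD control 3 the diet value was -0.47, and without lean 3 the value for NM-FGF19 against lean was 0.12, so neither direction held. The log2 ratio of Pdk4 to Pdk2, the kinase that livers express more, averaged -5.33 ± 0.82 in NM-FGF19, -4.72 ± 0.80 in HFD control and -4.80 ± 1.59 in lean livers, and 0 of its 3 differences passed (adjusted exact permutation p = 0.669 to 0.971).

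**Figure D4:**
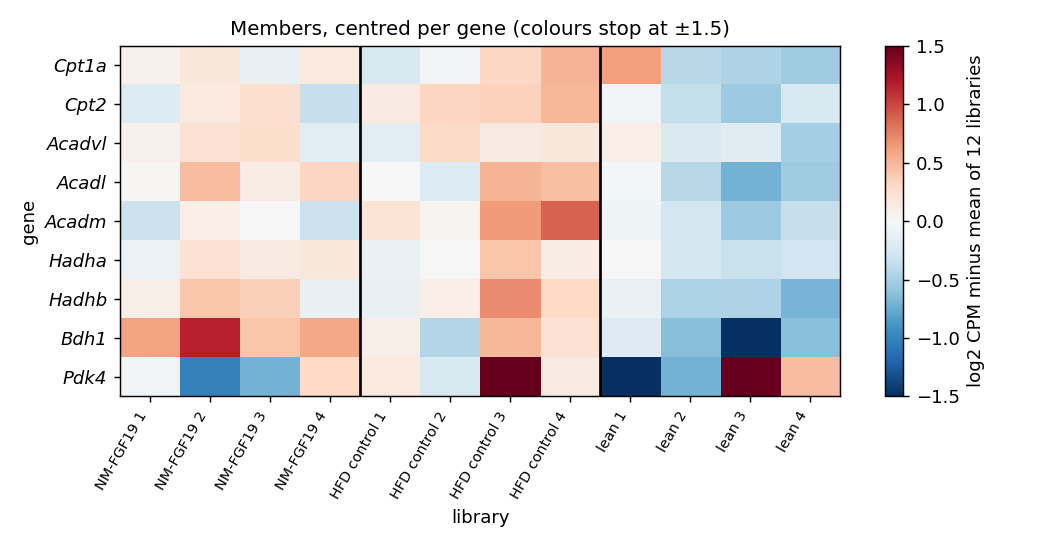
Log2 CPM of the 9 genes in each library, centred on the gene's mean over the 12 libraries, with colours stopped at ±1.5. Red is above and blue below the gene's mean; lean 2, 3 and 4 are mostly blue except for Pdk4, which is red in lean 3 (17.4 CPM) and HFD control 3 (15.2 CPM), and Bdh1 is red in all 4 NM-FGF19 libraries.

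How alike the members' patterns were was measured as the mean absolute difference of centred log2 CPM over the 12 libraries. These values are descriptions, and all genes of a library share its depth and scaling. The closest pair was Cpt2 and Acadm, at 0.14, followed by Acadvl and Hadha at 0.15. Hadha and Hadhb, the divergent pair, were 0.19 apart. Pdk4 was farthest from every other member, at 0.73 to 0.97. Among 11534 other genes with a symbol and at least 2 CPM on average, the nearest to Acadm were Slc25a20 at 0.09, which encodes the carnitine-acylcarnitine translocase, Siae at 0.10 and Hadh at 0.10, which encodes the short-chain hydroxyacyl-CoA dehydrogenase. Cpt1a lay nearest to Slc12a9, Poc1a and Lmo7, each at 0.15. Cpt2 lay nearest to Vwa8, Hsd17b4, a peroxisomal oxidation gene, and Mmd, at 0.09 to 0.10. For Acadl the nearest were Perp, Dusp22 and 4930523C07Rik, each at 0.12. For Acadvl they were Dennd4b at 0.07, Slc25a13, which encodes a mitochondrial aspartate-glutamate carrier, at 0.08 and Ndufs1, for a subunit of respiratory complex I, at 0.09. Hadha lay nearest to Gmfb, Acads, the short-chain dehydrogenase gene, and March8, at 0.06 to 0.07. Hadhb lay nearest to Sh3rf1 at 0.14, Acad9, for another acyl-CoA dehydrogenase, at 0.15 and Acot12, for an acyl-CoA thioesterase, at 0.16. For Bdh1 the nearest were Pctp, for a phosphatidylcholine transfer protein, at 0.19, 1110028F11Rik at 0.23 and Qpct at 0.25. Pdk4 had the most distant neighbours, Tead1 at 0.25, Jun at 0.29 and Limk1 at 0.33.

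Other genes of carnitine transport and fatty acid activation were higher on the diet in part. Of 12 listed, 10 were tested. In HFD control against lean livers 3 were higher and 0 lower, against 5.04% and 3.29% of all genes. The log2 fold changes ran from -0.70 to 1.70, with a median of 0.55. HFD control and lean ranges did not overlap for 6 of the 10, against 15.3% of all genes. Of these, Acsl3, Acsl5 and Slc27a5 lay lower in HFD control, and Crat, Slc25a20 and Cpt1c higher. Acsl3, Acsl5, Slc27a5 and Cpt1c are named after their values were seen. With only the 2 groups in the fit, 1 was called lower. Crat, for carnitine acetyltransferase, averaged 69.5 ± 33.1 CPM in HFD control and 21.4 ± 1.05 CPM in lean livers (SD, n = 4 each), a log2 fold change of 1.70 ± 0.31 (adjusted p = 0.00998). Slc25a20 averaged 123 ± 27.4 CPM in HFD control and 72.7 ± 10.5 CPM in lean livers, a log2 fold change of 0.76 ± 0.17 (adjusted p = 0.0173), and its call was lost by a margin without HFD control 3 (0.65, adjusted p = 0.0502). The remaining called gene, named after its value was seen, was Slc22a5, for the cell's carnitine importer, at 1.08 ± 0.28. The count of 3 became 1 without HFD control 3, and without HFD control 3 and lean 3 together, where Crat was the 1 call left. NM-FGF19 against HFD control livers gave 0 called of 10 and a median of -0.08, and NM-FGF19 against lean livers 0 called of 10 and a median of 0.36. For NM-FGF19 against HFD control, 2 were called higher without NM-FGF19 3, 1 higher with no filter on low counts, and 2 higher and 1 lower with DESeq2.

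Of 22 other genes of beta-oxidation, 22 were tested. In HFD control against lean livers 4 were higher and 0 lower, against 5.04% and 3.29% of all genes. The median log2 fold change was 0.31. Eci1, for an isomerase that handles unsaturated chains, averaged 123 ± 29.2 CPM in HFD control and 61.4 ± 10.1 CPM in lean livers, a log2 fold change of 1.00 ± 0.17 (adjusted p = 0.00772). Acot2, for a mitochondrial acyl-CoA thioesterase, had 3.67, 0.840, 16.2 and 8.18 CPM in HFD control mice and 0.437 to 0.958 CPM in lean mice, a log2 fold change of 3.52 ± 0.81 (adjusted p = 0.0232). HFD control 2 lay within the lean range of Acot2, and the call was lost without any 1 of HFD control 3, lean 2, lean 3 or lean 4 (adjusted p = 0.0563 to 0.0639). Acot2 belongs to a family of close copies, so reads may be split between them. Hadh (0.71 ± 0.17) and Decr1 (0.80 ± 0.22), for a reductase of unsaturated chains, were also called and are named after their values were seen. The count of 4 became 1, with Eci1 the call left, without any 1 of HFD control 3, lean 2, lean 3 or lean 4, and without HFD control 3 and lean 3 together. It was 2 without HFD control 4, 7 without lean 1 and 11 with library totals alone. In NM-FGF19 against HFD control livers 0 of the 22 were called and the median was -0.05, and in NM-FGF19 against lean livers 0 were called and the median was 0.19.

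Of the 8 other ketone body genes reported here, 3 were higher and 0 lower in HFD control than in lean livers, with a median of 0.15. Over all genes the shares were 5.04% and 3.29%. Acat1, which joins acetyl-CoA units at the entry to the pathway, averaged 422 ± 93.7 CPM in HFD control and 215 ± 27.2 CPM in lean livers, a log2 fold change of 0.98 ± 0.17 (adjusted p = 0.00848). Slc16a7, for a transporter of monocarboxylates, averaged 82.0 ± 38.4 CPM in HFD control and 23.3 ± 9.59 CPM in lean livers, a log2 fold change of 1.82 ± 0.39 (adjusted p = 0.0185), which was lost without HFD control 3 or lean 2 (adjusted p = 0.0569 and 0.0509). Oxct1, named after its value was seen, encodes the enzyme of ketone body use that hepatocytes nearly lack, and had 0.92 ± 0.24. The count of 3 became 1, with Acat1 the call left, without HFD control 3, without lean 2, and without HFD control 3 and lean 3 together. Without lean 1, and with DESeq2, 1 of the 8 was called lower. In NM-FGF19 against HFD control livers 0 of the 8 were called and the median was -0.09, and in NM-FGF19 against lean livers 0 were called and the median was 0.36.

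Of 11 other genes of the pyruvate dehydrogenase complex and its kinases and phosphatases, 0 were called in each of the 3 comparisons, with medians of 0.15, -0.03 and 0.13, while library totals alone called 4 higher in HFD control than in lean livers. Of 21 genes that regulate the pathway, 0 were called in each comparison, with medians of -0.06, 0.07 and -0.04. Among them Ppara averaged 131 ± 30.3 CPM in NM-FGF19, 125 ± 30.3 CPM in HFD control and 89.2 ± 35.3 CPM in lean livers, with a diet value of 0.49 ± 0.26 (adjusted p = 0.278). HFD control and lean ranges did not overlap for 2 of the 21, against 15.3% of all genes. Acacb had 23.8 to 55.4 and 90.4 to 145 CPM, and Rxra 478 to 626 and 652 to 761 CPM, in HFD control and lean livers. Both are named after their values were seen. For the diet, 1 of the 21 was called lower with DESeq2 and with only the 2 groups, and 1 higher with library totals alone.

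Known PPAR-alpha targets outside the mitochondrial pathway showed larger values than the 9 members. Of 20 listed and tested, 11 were higher and 0 lower in HFD control than in lean livers, where 5.04% and 3.29% of all genes were. Their median log2 fold change was 2.21. The count of 11 became 7 without any 1 of HFD control 3, lean 2 or lean 3, and 6 without HFD control 3 and lean 3 together. Against HFD control, NM-FGF19 livers had 1 of the 20 lower and 0 higher, where 0.151% and 0.282% of all genes were, with a median of -1.14. Against lean livers they had 2 higher and 0 lower, where 1.01% and 0.484% of all genes were, with a median of 0.66. With 1 library left out these counts ran from 0 to 3 (3 without HFD control 2) and from 0 to 2, and DESeq2 gave 5 lower and 6 higher. The gene that fell under NM-FGF19 was Acaa1b, for a peroxisomal thiolase, which had 124, 303, 323 and 210.4 CPM in NM-FGF19 mice and 943, 589, 1570.0 and 1123 CPM in HFD control mice. The groups did not overlap, which held for 0 of the 9 members and 5.62% of all genes in this comparison, and the log2 fold change was -2.14 ± 0.36 (adjusted p = 0.0221). It was lost without any 1 of NM-FGF19 1, NM-FGF19 2, NM-FGF19 4, HFD control 1, HFD control 3 or HFD control 4 (adjusted p = 0.0565 to 0.0802), and Acaa1b is a near copy of Acaa1a, so its counts are uncertain. Ehhadh, for the peroxisomal bifunctional enzyme, averaged 156 ± 37.6 CPM in NM-FGF19, 348 ± 92.4 CPM in HFD control and 99.9 ± 26.4 CPM in lean livers, with 1.80 ± 0.25 for the diet (adjusted p = 0.00285) and -1.15 ± 0.25 for NM-FGF19 against HFD control (adjusted p = 0.0689). Cd36, for a fatty acid transporter, and Vnn1, for a pantetheinase, were higher in NM-FGF19 than in lean livers, by 1.73 ± 0.33 and 3.55 ± 0.58 (adjusted p = 0.0247 and 0.0187). The Cd36 call was lost without any 1 of NM-FGF19 1, NM-FGF19 4 or a lean mouse (adjusted p = 0.0532 to 0.0764), and the Vnn1 call without NM-FGF19 4 or lean 3 (adjusted p = 0.0515 and 0.0528).

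**Figure D5:**
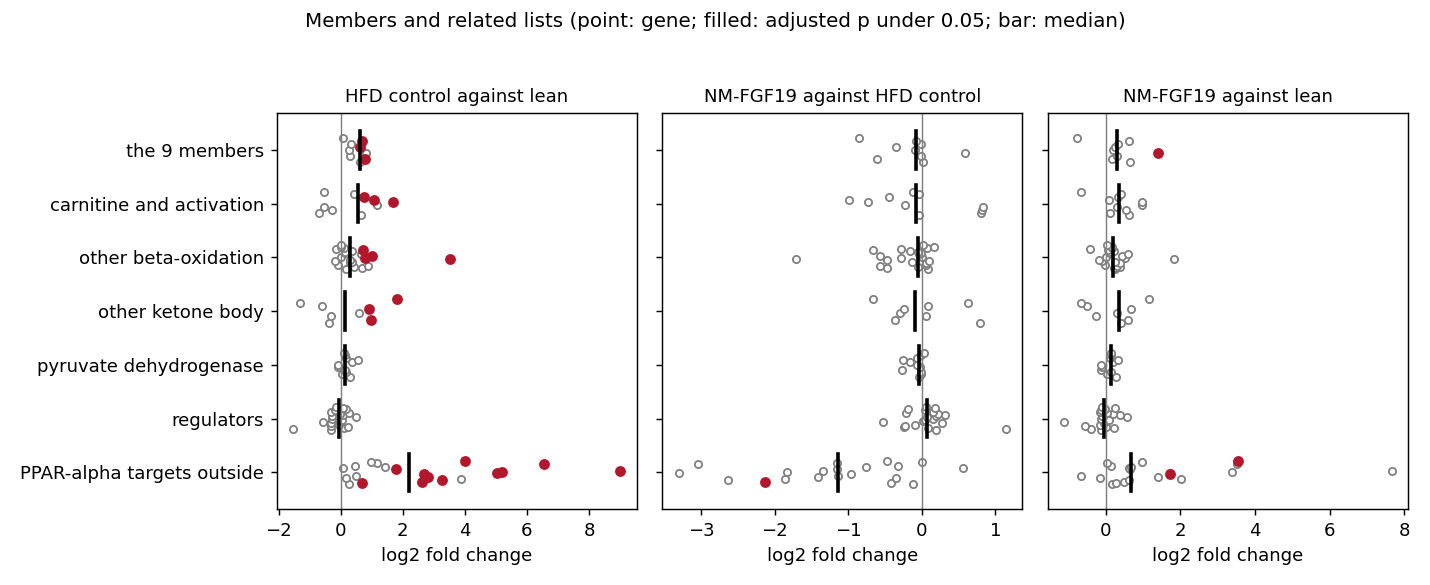
Log2 fold changes of the 9 members and of 6 related lists in each comparison, with a point per gene, filled where the adjusted p is under 0.05, and a bar at the list's median; the x axes differ between panels. The PPAR-alpha targets outside the mitochondrial pathway have medians of 2.21, -1.14 and 0.66, and the 9 members 0.61, -0.08 and 0.29.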

How the data were processed

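RNA-seq libraries were made from 100 ng of total liver RNA with a stranded mRNA kit and read as pairs of 101 nt, per the labels' protocols. The deposited values are raw read counts per gene. The submitters' processing notes name Trimmomatic, STAR, featureCounts and the build mm39. Tool versions, the annotation and how strand and multi-mapped reads were counted are not given in these sources. A table of gene names matched 52083 of the 55359 identifiers, and identifiers without a symbol held 0.515% of counts. All 12 columns matched a label, 0 were left over, and titles number the mice of each group 1 to 4; p-values measure the spread between these libraries.

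All 12 libraries entered one edgeR 4.0.16 fit in R 4.3.3 (TMM, filterByExpr with a minimum count of 10, robust quasi-likelihood F test, 2-sided, Benjamini-Hochberg over 15274 genes, threshold 0.05). SEs follow from the F statistic. Scripts were tested on simulated data. Ratios of 2 genes were compared by exact permutation tests (scipy 1.17.1). Near-identical copies were sought with BLAST 2.17.0 (at least 90% identity over 100 bases) and lengths taken from GENCODE transcripts of GRCm38. Replicates differed by more than counting error (chi-square per degree of freedom at least 36.8, r = 0.946 to 0.980).

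The 9 members and all lists were chosen with earlier results of these data known. Besides the members, the text names per list and comparison the 2 called genes with the smallest adjusted p in each direction, Pdk2, and the 3 genes nearest each member; others are said to be named after their values were seen, and Ppara was added after its values were seen. A list was shortened after its values were seen, by an item that is not reported here. Alternatives were RLE size factors, library totals alone, no filter, a stricter filter (1 CPM in 4 samples), DESeq2 1.42.0, limma 3.58.1 voom, a non-robust fit, a fit of just the 2 groups in question, a block for the replicate number, each library left out, HFD control 3 and lean 3 left out together and, added after seeing the data, Hadhb summed with its copies.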

Additional observations from a re-analysis of the deposited data

Results flagged for a closer look

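For each of the 9 genes and each of the 3 ratios, the 3 groups of 4 were searched for a library whose gap to the nearest of the others takes up nearly all of the group's range (Dixon's test at the 95% level). This picked 3 of 36 groups, and chance alone picks about 1 in 20. Cpt1a stood at 717 CPM in lean 1, against 325 to 352 CPM in the other lean mice. Pdk4 stood at 15.2 CPM in HFD control 3, against 4.40 to 5.75 CPM in the other HFD control mice. The log2 ratio of Hadha to Hadhb stood at 2.64 in NM-FGF19 4, against 2.14 to 2.18 in the other NM-FGF19 mice.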

How the results depend on the processing

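Over all genes, HFD control against lean gave 1272 calls, 2609 with library totals alone, 2220 with DESeq2, 480 without HFD control 3 and lean 3, and 537 to 1528 with 1 library left out. NM-FGF19 against HFD control gave 66 calls, 285 with DESeq2, 38 with only the 2 groups, 38 without HFD control 3 and lean 3, and 18 to 80 with 1 library left out. NM-FGF19 against lean gave 228 calls, 398 with library totals alone, 969 with DESeq2, 112 with voom, 117 with only the 2 groups, and 67 to 177 with 1 library left out. The 3 members higher in HFD control than in lean livers became 7 with library totals alone, 5 with DESeq2, 0 without HFD control 3 and lean 3, and 0 to 5 with 1 library left out. The 1 member higher in NM-FGF19 than in lean livers became 3 with DESeq2, 0 with only the 2 groups, and 0 to 1 with 1 library left out. The share of calls that were higher was 60.5, 65.2 and 67.5% in the 3 comparisons, against 91.3, 46.4 and 86.9% with library totals alone, which moved the median of all genes to 0.29, -0.13 and 0.17.

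With the replicate number as a block, the 3 comparisons gave 593, 18 and 40 calls, 0 members higher in HFD control than in lean livers and 0 higher in NM-FGF19 than in lean livers. The deviations of same-numbered mice correlated by -0.36 to 0.07 over 12 pairs, with 0 above 0.1, so the numbers do not pair the mice, and a call lost under the block is not a weaker effect.

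Signs changed only for values that were not called. For NM-FGF19 against HFD control these were Acadl with library totals alone (-0.12), Hadha with voom (0.000509) and, without HFD control 3 and lean 3, Hadha (0.10) and Hadhb (0.0931). For NM-FGF19 against lean it was Pdk4 without HFD control 3 and lean 3 (0.12). With 1 library left out, ranges that crossed 0 for NM-FGF19 against HFD control were -0.22 to 0.0441 for Cpt1a, -0.10 to 0.13 for Acadl, -0.10 to 0.0735 for Acadvl, -0.0881 to 0.10 for Hadha and -0.20 to 0.10 for Hadhb, and for Pdk4 -0.47 to 0.98 in HFD control against lean and -1.11 to 0.12 in NM-FGF19 against lean. Some of the ratios, which were not called, had ranges that crossed 0 too. For Pdk4 to Pdk2 they were -0.58 to 0.65 in HFD control against lean and -1.19 to 0.05 in NM-FGF19 against lean. Cpt1a to Cpt2 had -0.12 to 0.20 in NM-FGF19 against lean. Hadha to Hadhb had -0.06 to 0.11 in NM-FGF19 against HFD control. The cause was not tested. Of 1658 values recomputed under an alternative, 1454 were rated as unchanged. Gene values so rated kept their direction and side of the threshold, and counts stayed near the reported one. Ratios with 1 library left out had only to stay within their pooled SD, so some changed sign. Many of the values were not called or were counts of 0, so this share says little about the calls. Of 19 alternatives, the diet call held in 12 for Cpt2, 12 for Acadm and 11 for Hadhb. The Bdh1 call against lean held in 12 of 19. Some of the 19 could hardly change a call, such as the sum of Hadhb with its copies for the other genes. In the 8 fits with 1 mouse left out, each of these calls held in 3. The spread between 4 mice a group, not depth, sets the members' intervals, also for Pdk4, which had 49 to 569 counts per library.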
